A study of Arabidopsis thaliana with 24 samples.

Results

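EMS27 and MLB are Arabidopsis thaliana lines that were compared here in red light, in whole seedlings, at the level of gene expression and of splicing. MLB expresses the red-light receptor phytochrome B (phyB) from the epidermal ML1 promoter in the phyB-9 mutant. EMS27 is an rrc1 mutant obtained by chemical mutagenesis of MLB, so both groups share the transgene and phyB-9. EMS27 is 1 line, and other changes that mutagenesis left in its genome were not analysed here. Each group held 3 libraries, 6 of the 24 in the series. According to the protocol, 2 days of cold treatment were followed by white light (6 h, 50 µmol per m2 and s) and then by red light (60 h, 19 µmol per m2 and s). The labels state 4 °C for these steps, and whether the seedlings grew at 4 °C is unclear. A second pair of red-light groups, the mutant rrc1-689 and the wild type Col-0, with 3 libraries each, served where the same splicing event was listed in both pairs.

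The members were all rows that the authors deposited for this pair, namely 1146 genes in their expression table and 325 splicing events in 264 genes in their splicing table. The expression table gave a log2 fold change and a false discovery rate (FDR) per gene, but no level per library. The splicing table gave junction reads in each library, and these sums ranged from 24482 to 28447 in EMS27 and from 25076 to 27043 in MLB. They count the listed events alone, so the depth of a library is not known from them. The median event had 41 to 49 reads per library. RRC1 itself (AT5G25060, chromosome 5, 8633114 to 8640217) had no row in either table, so the mutated gene could not be checked in these data. Separate cultures are not stated for the libraries of a group. The spread that p-values rest on may therefore be technical. In RNA from whole seedlings, fewer cells of a type and less RNA per cell cannot be told apart.

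phyB is a photoreceptor that red light converts to its active form. The active form promotes the breakdown of PIF transcription factors, which otherwise drive elongation genes, and so favours the building of the photosynthetic apparatus. RRC1 is an SR-like protein, related to a factor that accompanies the U2 small nuclear ribonucleoprotein, the particle that binds the branch point near the 3' end of an intron. The last step of choosing a 3' splice site, or acceptor, depends on a pyrimidine-rich stretch, read by the large subunit of U2AF, followed by the dinucleotide AG.

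The sequences below show the choice between acceptors on which many of the events turned. In an alternative 3' splice site event, inclusion reads join the preceding exon to the upstream acceptor, and exclusion reads join it to the downstream one. Each line gives 25 intron bases and 5 exon bases of the sense strand from the RefSeq TAIR10.1 genome, with the AG in capitals. The genes are AT5G08650 (annotated as a small GTP-binding protein), HCF107 and HCF109 (high chlorophyll fluorescence genes needed for photosystem biogenesis) and VLN3 (an actin-binding villin).
AT5G08650 upstream acceptor: cttacatttctacgaatgcttgaAGatttg
AT5G08650 downstream acceptor: ttttgacatacacatatacttgcAGgcttg
HCF107 upstream acceptor: tatcttgtaaattaacacttagcAGacttt
HCF107 downstream acceptor: ttggtgaaagtgtattccggtttAGgcttg
HCF109 upstream acceptor: gaactgactatggtagttgattaAGatcgc
HCF109 downstream acceptor: attaagatcgcgttggatgttgcAGaggag
VLN3 upstream acceptor: tctcttttgttaaaatgacctgtAGaatat
VLN3 downstream acceptor: tttggtatgtttacctgtcatacAGgtgca
The sites of HCF109 (chr5:14236402-14236431 and chr5:14236383-14236412, minus strand) are only 19 bases apart.

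Use of the upstream acceptor was higher in EMS27 in all 4 of these genes and in JMJ30, a histone demethylase gene of the circadian clock. The JMJ30 upstream junction had 31, 51 and 44 reads in EMS27 and 3 in each library of MLB. Its downstream junction had 9, 9 and 10 reads in EMS27 and 35, 29 and 44 in MLB. The level of upstream use, the share of upstream reads among both, was 81.3% ± 3.75 in EMS27 and 7.88% ± 1.496 in MLB (SD, n = 3 each; limma adjusted p = 0.000118). All EMS27 libraries lay far above all MLB libraries, and the majority junction changed from the downstream to the upstream one.

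AT5G08650 had 49, 35 and 49 upstream reads in EMS27 and none in MLB, where 0 of 977 event reads allow a share of up to 0.307%. Its downstream reads were 94, 62 and 103 in EMS27 and 346, 352 and 279 in MLB. Both junctions therefore separated the groups, in opposite directions. In HCF107, 27, 24 and 26 upstream reads in EMS27 stood against 4, 0 and 0 in MLB, and downstream reads were 39, 31 and 57 in EMS27 and 131, 99 and 104 in MLB. In HCF109 the upstream level was 45.4% ± 4.71 in EMS27 and 5.24% ± 3.096 in MLB (adjusted p = 0.00166). In VLN3 it was 56.0% ± 10.7 in EMS27 and 5.42% ± 2.60 in MLB (adjusted p = 0.000838). The groups did not overlap in any of these genes. Limits from a count of 0 use 3 reads and cover counting error only.

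Of the 35 alternative 3' splice site events, 30 were higher in EMS27 and 5 lower. Limma called 29 and 3 of these, beside 291 of all 325 events (89.5%). The authors chose the events from the same libraries, which listed 0.308% of about 105502 bins tested, so a high share of calls was built into the list and these fits are no independent support. Among the 30 higher ones, both competing acceptors were adjacent to the tested part in 26, with AG at all 26 upstream and all 26 downstream sites. AG also ends 99.5% of all annotated introns. An acceptor score summed the log2 ratio of base frequencies at annotated Arabidopsis introns to equal frequencies over 14 intron bases and 1 exon base. Its median was 4.44 at upstream sites and 8.39 at downstream sites, and the upstream site scored lower in 20 of the 26 pairs; HCF107 was an exception, with 6.72 upstream and 5.67 downstream. Pyrimidines made up a median of 58.3% of the 12 bases before the upstream AG and 70.9% of those before the downstream AG. The sites lay a median of 91 bases apart, with a range of 15 to 469. The 5 pairs with a lower level in EMS27 were 3 to 30 bases apart, with median scores of 4.54 upstream and 4.15 downstream. These sequence values are descriptions and were given no test.

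**Figure D1:**
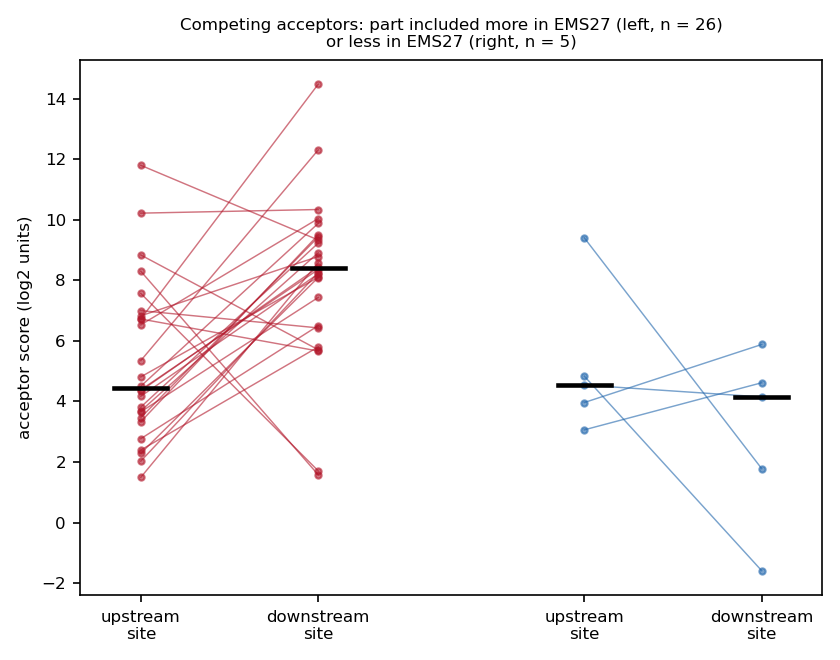
Acceptor scores (log2 units) of the upstream and downstream site in each alternative 3' splice site event; 1 line is 1 event and black bars are medians. In the 26 events with more upstream use in EMS27 the median score was 4.44 upstream and 8.39 downstream, while the 5 events with less upstream use in EMS27 had medians of 4.54 and 4.15.

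Most events were introns. An intron's retention level is the number of reads across its donor and acceptor boundaries as a share of these reads plus 2 times the reads of its spliced junction, and the level of a skipped exon is formed alike. Over all 325 events, 209 were higher in EMS27 and 116 lower, with 189 and 102 called by limma. Among 147 introns spliced out of every annotated transcript, 99 were higher in EMS27 and 48 lower, with 89 and 42 called by limma. The median level of the higher ones was 13.8% in EMS27 and 1.691% in MLB, and that of the lower ones was 4.19% in EMS27 and 18.22% in MLB. Introns annotated as retained in some transcript had the opposite balance, 11 higher and 38 lower in EMS27. The 38 lower ones had a median level of 7.09% in EMS27 and 33.6% in MLB. Among 70 introns that contain an annotated exon part, 52 were higher and 18 lower. Of 12 skipped exons, 10 were higher in EMS27, with a median inclusion of 58.5% in EMS27 and 16.5% in MLB. Across all events, 290 of 325 (89.2%) had no overlap between the groups.

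In many introns that were higher in EMS27, boundary reads were unequal between the donor and acceptor sides. Among the constitutively spliced introns that were higher in EMS27, 87 had at least 10 boundary reads in EMS27. In 55 of these, acceptor-side reads exceeded donor-side reads more than 4-fold, in 4 the donor side exceeded the acceptor side as much, and in 28 neither did. Among the 47 such introns that were lower in EMS27, measured in MLB, 2 were mainly acceptor-side, 3 mainly donor-side and 42 neither. A median of 90.0% of boundary reads fell on the acceptor side in the first set and 45.5% in the second. Introns with an annotated exon part had 35 mainly acceptor-side cases among 48 that were higher in EMS27 and 1 among 16 that were lower, where 6 were mainly donor-side. Many of these cases, such as those of JMJ30, HCF107 and VLN3, lie in loci with an alternative 3' splice site event counted above. RNA spliced to an upstream acceptor can also give reads across the downstream boundary, so these cases are not separate from those events. Among retained introns, 3 of 10 that were higher were mainly acceptor-side and 7 neither, and of 38 that were lower 3 were mainly acceptor-side, 5 mainly donor-side and 30 neither. Reads over the acceptor boundary alone do not show that the whole intron was present in the RNA. The minimum of 10 reads and the ratio of 4 were chosen after the reads were seen, and these counts were given no test.

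Summed over the 98 constitutively spliced introns higher in EMS27 other than that of GRP7, acceptor-side reads were 1161, 1060 and 1174 in EMS27 and 309, 345 and 323 in MLB. Donor-side reads of the same introns were 499, 424 and 410 in EMS27 and 266, 246 and 283 in MLB. Reads of their spliced junctions were 3776, 3200 and 3727 in EMS27 and 5509, 5634 and 5086 in MLB. Both boundary sums were higher in every EMS27 library, and the acceptor-side difference was the larger. The introns were selected for a higher level in EMS27, which is formed from these same reads. More boundary reads relative to spliced reads in EMS27 were therefore built into the sums. The 3 constitutively spliced introns below had the most acceptor-side reads among those with at most 5 donor-side reads in EMS27, and were chosen after their values were seen. In intron 3 of AT5G06130, annotated as a DnaJ-like chaperone, acceptor-side reads were 37, 38 and 35 in EMS27 and 3, 0 and 1 in MLB, with 1 donor-side read in each EMS27 library. In EX1, a nuclear gene for singlet oxygen signalling from chloroplasts, they were 45, 26 and 32 in EMS27 and 0, 2 and 1 in MLB, with 1, 0 and 4 donor-side reads in EMS27. In intron 2 of the ACT domain gene ACR12 there were 35, 35 and 33 acceptor-side reads in EMS27 and 15, 22 and 11 in MLB, with 1, 0 and 1 donor-side reads in EMS27.

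**Figure D2:**
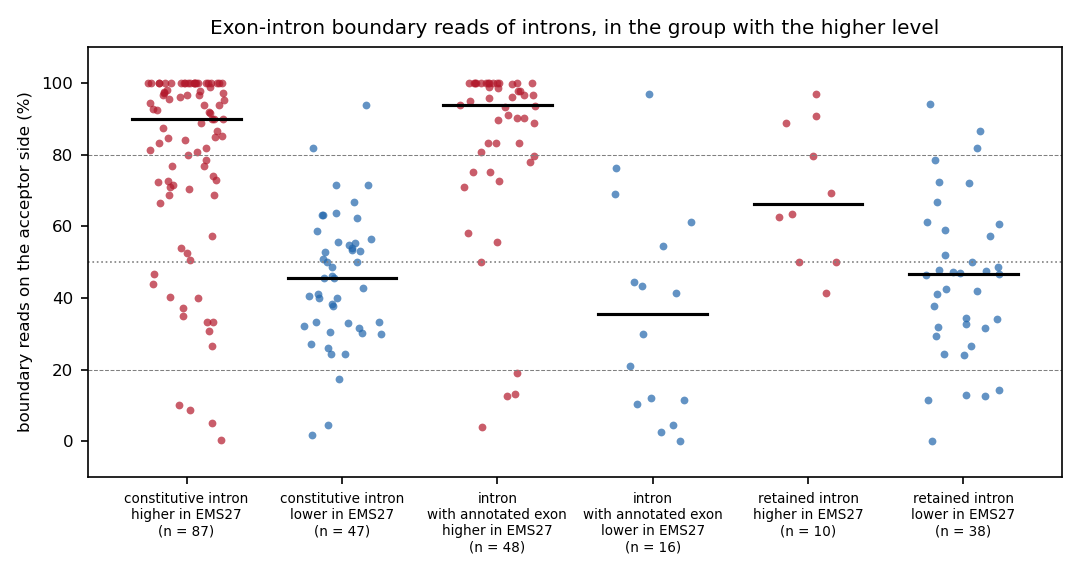
Share of exon-intron boundary reads on the acceptor side (%) in each intron with at least 10 boundary reads, counted in EMS27 for introns with a higher level in EMS27 and in MLB for the others; points are introns and black bars medians. Dashed lines at 20% and 80% mark a 4-fold excess of either side, and the first set has a median of 90.0% against 45.5% in the second.

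The introns also differed in length. The 99 constitutively spliced introns higher in EMS27 had a median length of 317 bases and the 48 lower ones 175, against 108 bases in 2439 other introns of the same loci and 102 bases in all 136308 annotated introns. Retained introns lower in EMS27 had a median of 106 bases and an acceptor score of 5.39, against 7.68 in other introns of these loci. Low scores were not confined to them, with 6.20 in retained introns higher in EMS27. Among introns lower in EMS27, constitutively spliced ones had 6.27 and those with an annotated exon part 6.31. Among introns higher in EMS27, these kinds had 7.54 and 8.31. All 99 constitutively spliced introns higher in EMS27 had GT at the donor and AG at the acceptor. Of all annotated introns, 98.5% had GT and 99.5% had AG, so this does not set the 99 apart. Of the constitutively spliced introns, higher and lower together, 138 lay in the coding region. If translated whole, 135 of these would bring an in-frame stop codon. So would 44 of 44 introns with an annotated exon part and 22 of 27 retained introns in the coding region. Introns without a listed event were not counted for this, so the counts set these introns apart from no others.

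Reads of each event were also tested by their parts, with edgeR's quasi-likelihood test over 325 inclusion and 325 exclusion sums (432 of 650 called, 66.5%). Of 189 events that limma called higher in EMS27, inclusion reads rose and exclusion reads fell in 64. In 84 only the inclusion reads were called, in 24 only the exclusion reads, in 10 both moved the same way, and in 7 neither was called. Of 102 events called lower, both parts moved in opposite directions in 32, only inclusion in 42 and only exclusion in 13. Retained introns lower in EMS27 had 15 of 36 called events with fewer inclusion reads and more exclusion reads. In the plot of both parts, events therefore spread along both axes.

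Genes of the circadian clock were on both tables. In the authors' deposited table, 9 of 30 core clock genes were listed, beside 1146 of about 19143 genes tested (5.99%), of which 354 were higher in EMS27 (1.85%) and 792 lower (4.14%). Log2 fold changes there are MLB over EMS27, so a positive value means lower in EMS27 and a negative one higher in EMS27. The morning factors LHY (2.28) and CCA1 (1.26), the related factors RVE8 (1.47), RVE1 (1.41) and ASG4 (1.33) and the coactivator LNK2 (2.06) were lower in EMS27 per the authors' deposited table. The flowering and clock regulator GI (-1.63), the blue-light receptor FKF1 (-1.07) and the repressor PRR5 (-1.03) were higher in EMS27 per the authors' deposited table. ASG4 overlaps another annotated locus, and PRR5 lies in the same 1 Mb window as RRC1. All libraries were taken at 1 time point, so level and phase of a clock gene cannot be told apart.

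Of the core clock loci, 3 carried splicing events. TOC1, an evening repressor, had no row in the expression table. In its intron 1, acceptor-side reads were 7, 3 and 8 in EMS27 and 0, 1 and 1 in MLB, and donor-side reads were 1, 1 and 0 in EMS27 and 0 in MLB. Its level was 7.19% ± 3.175 in EMS27 and 0.835% ± 0.724 in MLB (adjusted p = 0.0112), so every EMS27 library was higher on few reads. JMJ30, also without an expression row, had 3 events that share reads at the same acceptors. Its retained intron 4 had a level of 1.23% ± 0.320 in EMS27 and 45% ± 18.03 in MLB. RVE8 had both rows. Boundary reads of RVE8 intron 4 were 3, 0 and 3 in EMS27 and 25, 20 and 28 in MLB, and spliced reads were 17, 24 and 21 in EMS27 and 69, 89 and 62 in MLB. Both kinds of reads fell, and the level of 4.92% ± 4.33 in EMS27 and 14.6% ± 4.21 in MLB was not called (adjusted p = 0.0741).

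Of 11 clock output genes 3 were listed. GRP7, a glycine-rich RNA-binding protein that regulates its own splicing, was higher in EMS27, while the CONSTANS-like genes COL1 (1.08) and COL2 (1.63) were lower per the authors' deposited table. GRP7 had -1.15 per the authors' deposited table, and its intron 1 held more event reads than any other locus, 23.2% of the event reads of EMS27 and 10.5% of those of MLB when reads used by several events of a locus are counted once. Spliced reads were 4402, 3881 and 4688 in EMS27 and 1944, 2134 and 2041 in MLB. Boundary reads were 1642, 1461 and 1636 in EMS27 and 507, 401 and 447 in MLB. Both rose in edgeR's fit, with reads on both sides of the intron, and the level of 15.5% ± 0.537 in EMS27 and 9.998% ± 1.48 in MLB was not called although the groups did not overlap (adjusted p = 0.083).

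Of 62 splicing factor genes 1 was listed for expression (GRP7), and 5 loci, GRP7 included, had events. U2AF65A and U2AF65B encode the large U2AF subunits that read the pyrimidine stretch. In U2AF65A, boundary reads of the retained intron 11 were 3, 4 and 6 in EMS27 and 72, 47 and 54 in MLB, and spliced reads were 180, 156 and 158 in EMS27 and 137, 86 and 105 in MLB. The level was 1.32% ± 0.52 in EMS27 and 20.9% ± 0.511 in MLB (adjusted p = 0.000385). In U2AF65B intron 4 the level was 26.2% ± 2.48 in EMS27 and 61.8% ± 2.81 in MLB (adjusted p = 0.00215). Retention was thus lower in EMS27 in both paralogues, without overlap. The U2AF65A intron is shown with 6 exon bases on each side and its GT and AG in capitals (chr4:17294598-17294709, minus strand).
U2AF65A intron with flanks: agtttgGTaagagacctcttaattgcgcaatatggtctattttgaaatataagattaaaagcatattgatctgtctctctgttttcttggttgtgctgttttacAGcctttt
AFC2, a kinase of the LAMMER type that phosphorylates SR proteins, had an exon with an inclusion of 33.4% ± 9.10 in EMS27 and 60.3% ± 3.42 in MLB (adjusted p = 0.0123). In the SR protein gene RS40 an exon part of the 5' UTR was at 11.3% ± 6.58 in EMS27 and 22.8% ± 9.18 in MLB, with overlap (adjusted p = 0.105).

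**Figure D3:**
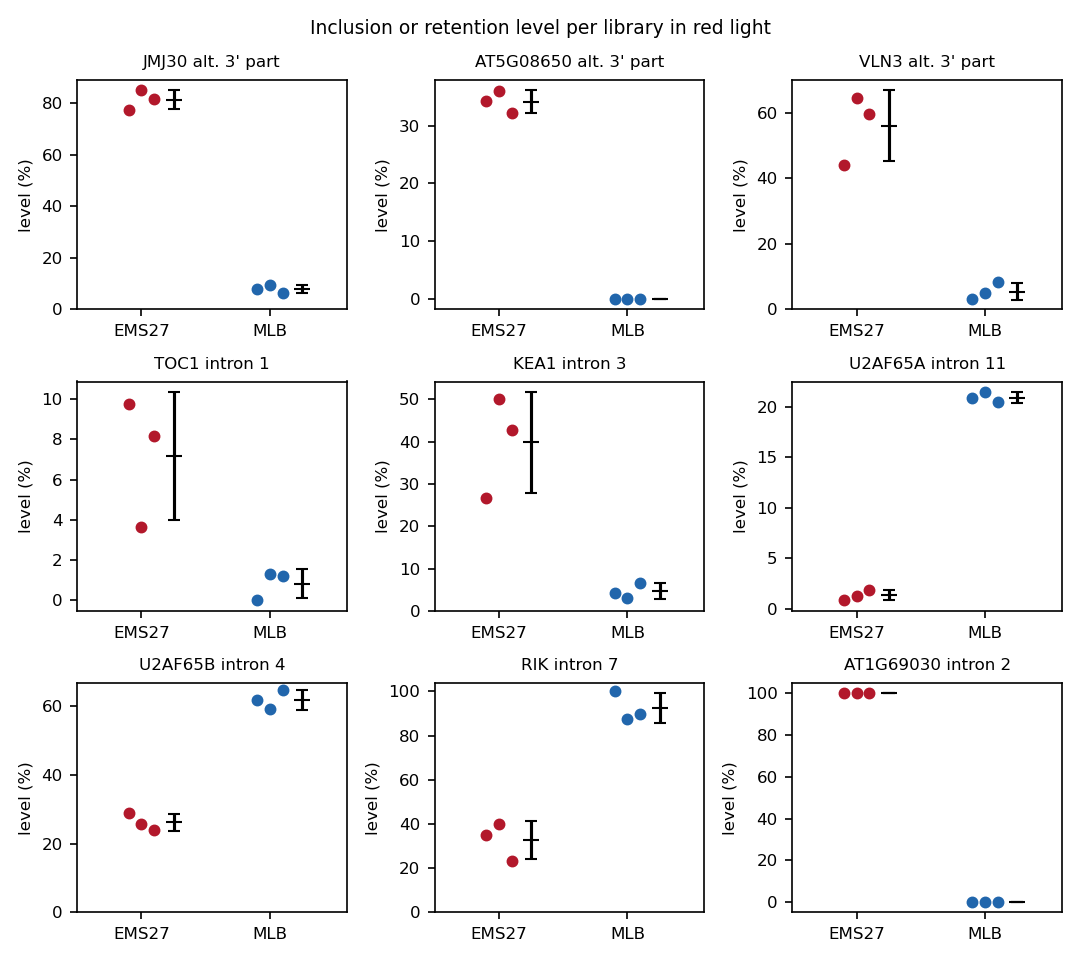
Inclusion or retention level (%) of 9 events in each red-light library of EMS27 (left) and MLB (right), with mean and SD beside the points. The JMJ30, AT5G08650, VLN3, TOC1, KEA1 and AT1G69030 events are higher in EMS27, and those of U2AF65A, U2AF65B and RIK are lower, with no overlap in any panel.

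Loci with a row in both tables numbered 26, with 33 events. They made up 9.85% of the 264 event loci and 2.27% of the 1146 listed genes, beside 5.99% of all genes tested that were listed. Their event reads per locus moved as the gene did in all 26, and edgeR called 25 of them, beside 116 of 264 loci (43.9%; 59 higher and 57 lower in EMS27, or 25 and 82 without scaling beyond event totals). The event reads are part of the reads of the same genes, so they are no separate measurement of them. Of the 26, 20 were lower and 6 higher in EMS27. The 20 lower genes had 15 events that were higher in EMS27 and 10 that were lower, and the 6 higher genes had 8 events, all with a higher level. Of all 325 events, 209 were higher in EMS27.

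KEA1, a potassium antiporter of the chloroplast envelope, had the lowest FDR among these loci, with a log2 fold change of MLB over EMS27 of 2.33 per the authors' deposited table (FDR 4.85e-166; chromosome 1, 284350 to 291203). Its intron 3 had 11, 4 and 4 spliced reads in EMS27 and 91, 81 and 56 in MLB. Boundary reads were 8, 8 and 6 in EMS27 and 8, 5 and 8 in MLB. Boundary reads thus overlapped between the groups while spliced reads were several times fewer in EMS27. In EMS27 all boundary reads lay on the acceptor side. The level was 39.8% ± 11.96 in EMS27 and 4.62% ± 1.87 in MLB (adjusted p = 0.00144). The intron is shown with 6 bases on each side (chr1:286802-287002, plus strand).
KEA1 intron with flanks: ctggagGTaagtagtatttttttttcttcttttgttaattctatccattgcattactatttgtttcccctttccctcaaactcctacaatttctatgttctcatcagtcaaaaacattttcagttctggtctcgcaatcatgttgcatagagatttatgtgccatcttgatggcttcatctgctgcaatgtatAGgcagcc

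AT1G56500 (annotated as a haloacid dehalogenase-like hydrolase; 1.93 per the authors' deposited table) had 31, 12 and 23 spliced reads over its intron 5 in EMS27 and 142, 160 and 135 in MLB. Its boundary reads were 1, 3 and 7 in EMS27 and 1, 1 and 8 in MLB. Its levels overlapped, although limma called the event as higher in EMS27 (adjusted p = 0.0233). The call was lost without EMS27 replicate 2 or 3 or MLB replicate 1 or 2 (limma adjusted p 0.066 to 0.0742). It was kept without EMS27 replicate 1 or MLB replicate 3. F2KP, the enzyme that makes and breaks down fructose 2,6-bisphosphate (1.16 per the authors' deposited table), had 2 introns with higher levels in EMS27. For its intron 15 the level was 11.9% ± 0.718 in EMS27 and 1.83% ± 0.724 in MLB (adjusted p = 0.00166). AT5G08650 (1.37 per the authors' deposited table) had the acceptor switch given above. HINT2, a histidine triad nucleotide-binding protein (1.21 per the authors' deposited table), had 9, 6 and 8 upstream-acceptor reads in EMS27 and 0, 3 and 4 in MLB. The glucosinolate oxygenase gene FMOGS-OX2 (1.42) was lower in EMS27 per the authors' deposited table, and on 5, 3 and 5 event reads in EMS27 its level was not called. AT5G06060, with an NAD(P)-binding fold (1.015 per the authors' deposited table) had a level of 22.6% ± 0.938 in EMS27 and 9.93% ± 0.676 in MLB for intron 1.

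RIK, an RNA-binding KH protein, was lower in EMS27 (1.06 per the authors' deposited table) and its intron 7 was spliced more. Spliced reads were 12, 9 and 15 in EMS27 and 0, 5 and 4 in MLB, and boundary reads were 13, 12 and 9 in EMS27 and 103, 70 and 72 in MLB. The level was 32.7% ± 8.71 in EMS27 and 92.5% ± 6.61 in MLB (adjusted p = 0.00773). The protease-like AT3G26085 (1.24; overlaps another locus), the TRAF-like AT2G32880 (1.77), AT3G03350, with an NAD(P)-binding fold (1.23), ABCD2 (1.07) and AT3G47675 (1.24) were also lower in EMS27 per the authors' deposited table, each with less retention in EMS27. The ABCD2 call (adjusted p = 0.032) was lost when any of 5 of the 6 libraries was left out (0.0594 to 0.0975). For AT3G03350 intron 7, boundary reads were absent in all EMS27 libraries and were 9, 11 and 13 in MLB. Event reads of AT3G03350 were only 18 over the EMS27 libraries, where a count of 0 allows a share of up to 16.7%.

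Resistance-type genes RLM3 (1.93), AT1G58602 (1.58) and AT1G59218 (1.04) were lower in EMS27 per the authors' deposited table. Of their events that of RLM3 was called, with a level of 11.4% ± 1.97 in EMS27 and 3.93% ± 2.28 in MLB (adjusted p = 0.0112). AT1G58602 and AT1G59218 belong to multigene families whose reads can be shared, so their values are uncertain. The phosphate transporter PHT1;1 (1.02), which has near-identical neighbours, the thioredoxin-like AT1G76020 (1.08) and the cysteine protease-like AT2G27420 (1.62) complete the group that was lower in EMS27 per the authors' deposited table.

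Of the 6 genes higher in EMS27, the glucanase-like E13L3 had the most event reads after GRP7. It had -1.07 per the authors' deposited table. Upstream-acceptor reads of E13L3 were 79, 77 and 74 in EMS27 and 0, 9 and 11 in MLB, and downstream reads were 94, 71 and 67 in EMS27 and 40, 57 and 46 in MLB. Both junctions rose in edgeR's fit, the upstream one more. The bHLH gene AT1G05805 (-1.002), the O-fucosyltransferase-like AT1G04910 (-1.17), the kinesin AT4G39050 (-1.06) and the squamosa-binding factor SPL13B (-1.10) were the others per the authors' deposited table besides GRP7. In AT1G05805 intron 1, boundary reads were 71, 52 and 58 in EMS27 and 10, 9 and 17 in MLB. In AT4G39050 intron 11 all boundary reads of EMS27, 18, 10 and 14, were on the acceptor side, and MLB had 0, 1 and 1 in all.

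AT1G69030, annotated as a BSD domain protein, had the largest difference in level of all events. Its intron 2 had 31, 28 and 28 boundary reads and no spliced read in EMS27, and no boundary read and 72, 55 and 54 spliced reads in MLB. A count of 0 allows up to 3.45% of 87 reads in EMS27 and up to 1.66% of 181 reads in MLB. The switch was complete at this depth, and the event was not listed for rrc1-689. The intron is shown as in TAIR10.1 with 6 exon bases on each side (chr1:25948479-25948621, minus strand), and no sequence of EMS27 was read.
AT1G69030 intron with flanks: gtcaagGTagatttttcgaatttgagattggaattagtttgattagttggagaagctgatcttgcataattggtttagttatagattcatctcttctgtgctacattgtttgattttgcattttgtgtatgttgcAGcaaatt
Another exon part of AT1G69030 had a level of 39.9% ± 13.8 in EMS27 and 100% in each library of MLB. CID12, a gene for a poly(A)-binding protein partner, had 39, 24 and 36 boundary reads over its intron 3 in EMS27 and 0, 1 and 0 in MLB, and it too was not listed for rrc1-689.

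The following events were among the 4 lowest p-values of their kind with a mean of at least 20 reads per library. The cycloartenol synthase gene CAS1 had 14, 22 and 11 upstream-acceptor reads in EMS27 and none in MLB. The hydrolase-like AT4G17470 had 15, 15 and 10 in EMS27 and none in MLB. The ubiquitin-conjugating enzyme gene UBC35 had 0, 0 and 1 boundary reads over a retained intron in EMS27 and 24, 16 and 21 in MLB. AT1G20920, a P-loop hydrolase gene, had none in EMS27 and 14, 11 and 12 in MLB. Among skipped exons, inclusion was higher in EMS27 in the RNA-binding AT2G41060 (64.5% ± 3.05 against 12.7% ± 4.18 in MLB) and the zinc finger gene AT5G06770 (94.6% ± 3.08 against 55.5% ± 6.71 in MLB). TOPP8, a protein phosphatase, had 24, 20 and 13 inclusion reads in EMS27 and 0, 1 and 2 in MLB. The tautomerase-like AT5G01650 had an inclusion of 28.01% ± 1.46 in EMS27 and 3.61% ± 2.70 in MLB. An event with few reads lay in a light signalling gene outside that choice. COP1, the ubiquitin ligase of light signalling, had 5, 5 and 4 boundary reads in EMS27 and 2, 2 and 0 in MLB, all on the acceptor side of intron 6. Its level was 13.5% ± 4.13 in EMS27 and 2.71% ± 2.39 in MLB (adjusted p = 0.019, or 0.0567 without EMS27 replicate 1).

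The second allele was then set beside these events. Of the 325 events, 136 in 112 loci were also listed for rrc1-689 against Col-0, 41.9% of the events of EMS27 and 41.5% of the 328 of rrc1-689. These pairs share no library. All 136 had the same direction in both, and limma called 132 of them in rrc1-689 against Col-0 (97.1%), although the authors chose them from those libraries too. The share with a row in both was 65.7% for alternative 3' splice sites, 66.7% for skipped exons, 48.6% for introns with an annotated exon part, and 34.7% for both constitutively spliced and retained introns. The absolute difference in level was larger for EMS27 minus MLB than for rrc1-689 minus Col-0 in 86 of the 136. Its median over the 136 was 17.403 percentage points for EMS27 minus MLB and 13.97 for rrc1-689 minus Col-0. Events listed for EMS27 alone had a median of 11.8 percentage points for EMS27 minus MLB, against 14.5 over all 325.

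JMJ30 upstream-acceptor use was 81.9% ± 3.52 in rrc1-689 and 12.96% ± 4.44 in Col-0. The level of TOC1 intron 1 was 12.9% ± 5.31 in rrc1-689 and 3.31% ± 1.91 in Col-0. That of U2AF65A intron 11 was 2.72% ± 0.661 in rrc1-689 and 18.5% ± 3.44 in Col-0. KEA1 intron 3 had a level of 23.1% ± 9.42 in rrc1-689 and 3.62% ± 1.15 in Col-0, and RIK intron 7 had 25.2% ± 4.90 in rrc1-689 and 94.1% ± 5.95 in Col-0. In each of these, both mutants lay on the same side of their own control. A test of the difference between the pairs, over 12 libraries, called 3 of 136 events (2.21%), with 13 at an unadjusted p below 0.05. They lay in an intron of VLN3, in EX1 and in TOM2A, and all 3 had the larger change in EMS27. The acceptor event of VLN3 was not called in this test (limma adjusted p = 0.946). None of the 3 was called when any of several single libraries was left out, among them EMS27 replicate 2, MLB replicate 3 and rrc1-689 replicate 1.

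Beyond the clock, listed genes of several groups lay on one side. All 6 listed light signalling genes of 45 were lower in EMS27. They were the B-box genes BBX32 (2.83), BBX30 (1.62), BBX25 (1.25) and BBX18 (1.03), the bZIP factor HYH (1.67) and the UV-B repressor RUP2 (1.398) per the authors' deposited table. BBX32 overlaps another annotated locus, and RUP2 lies in the same 1 Mb window as RRC1. Of 57 light-harvesting, Rubisco and carbon-fixation genes 6 were listed, all lower in EMS27, with LHCB7 (1.44), RBCS2B (1.22), Rubisco activase RCA (1.12), RBCS3B (1.08), RBCS1B (1.05) and GAPB (1.04) per the authors' deposited table. The 3 RBCS genes lie side by side as similar copies, between which reads can be split. Most members of both lists had no row, and 4.14% of all genes tested were listed as lower in EMS27.

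Genes of seed maturation were the largest group higher in EMS27, 11 of 28, where 1.85% of all genes tested were listed as higher. The late embryogenesis genes EM6 (-3.72), ECP63 (-3.19) and EM1 (-2.75), the oleosin gene OLEO1 (-3.41), the storage protein gene CRU1 (-3.28) and the master regulator ABI3 (-2.14) led per the authors' deposited table. The abscisic acid list shared ABI3 and added the bZIP factor ABI5 (-1.85), while the biosynthesis gene ABA1 (1.05) was lower in EMS27 per the authors' deposited table. Of 25 cold and dehydration genes, COR15A (-2.92), RD29A (-1.74), COR15B (-1.48) and COR27 (-1.10) were higher in EMS27 and RD26 (1.04) was lower per the authors' deposited table. COR15A and COR15B are neighbouring copies. The floral repressor gene FLC (-1.78; FDR 9.72e-56) was also higher in EMS27 per the authors' deposited table, and was named after its value was seen. FLC lies within the noncoding locus AT5G01675 of the same table, so their reads may not be separate.

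Most genes of the growth lists had no row, and most of those listed were higher in EMS27, where 1.85% of all genes tested were listed as higher. All 4 listed PIF-induced genes of 19 were higher, namely the sulfotransferase gene ST2A (-2.71), IAA19 (-1.39), the auxin synthesis gene YUC8 (-1.36) and PIL1 (-1.24) per the authors' deposited table. Of 12 listed auxin genes among 70, 10 were higher, led by IAA20 (-2.05), IAA5 (-1.88), SAUR10 (-1.68), IAA6 (-1.64), SAUR22 (-1.54) and SAUR9 (-1.51) per the authors' deposited table, and the other 2 were lower. Of 27 gibberellin genes 3 were listed. The gibberellin synthesis genes GA20OX1 (-2.23) and GA3OX1 (-1.47) and the responsive GASA14 (-1.18) were higher in EMS27 per the authors' deposited table. So were 3 of 24 ethylene genes, ETR2 (-1.49), ACS5 (-1.17) and ACS11 (-1.14) per the authors' deposited table. All 6 listed of 36 cell wall genes were higher, with the expansins EXPA2 (-1.73) and EXPA8 (-1.04), the pectin methylesterase PME35 (-1.39) and the xyloglucan enzymes XTH18 (-1.51), XTH17 (-1.06) and XTH19 (-1.05) per the authors' deposited table. The 3 XTH genes are similar copies. IAA19 and YUC8 stand on 2 of these lists.

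**Figure D4:**
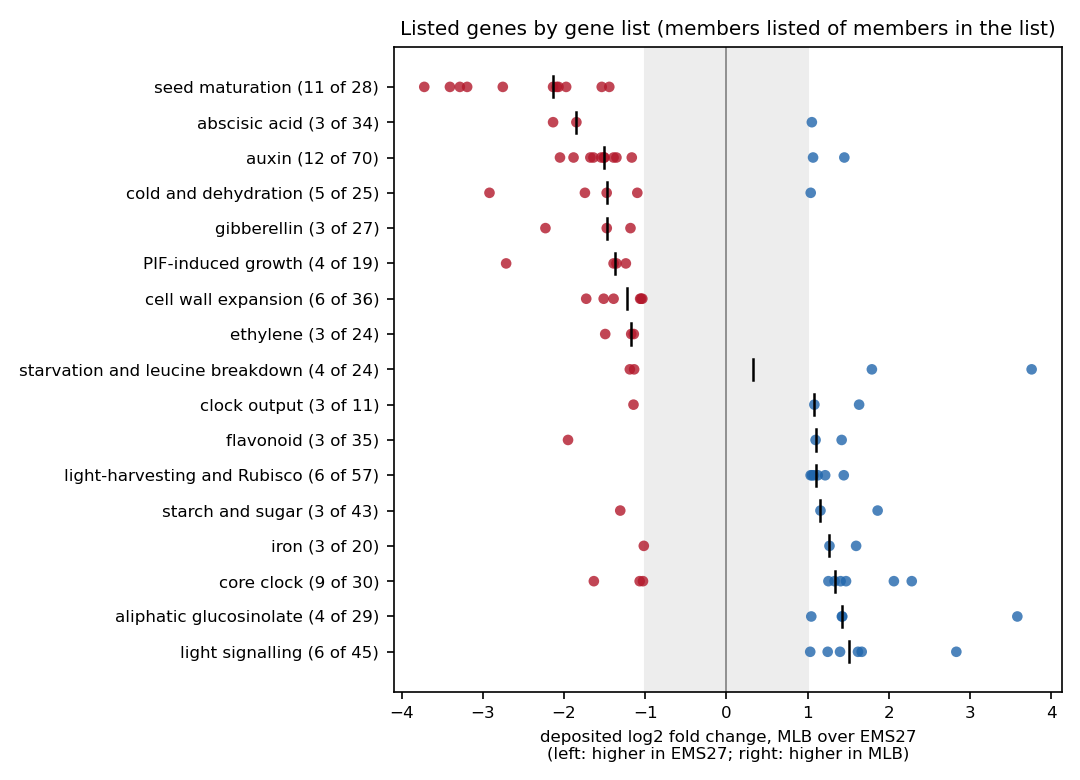
Deposited log2 fold change of MLB over EMS27 (negative: higher in EMS27) for each listed member of the gene lists with 3 or more listed members; black bars are medians, and no gene inside the grey band from -1 to 1 was listed by the authors. Seed maturation (11 of 28 members) lies wholly on the side of EMS27 and light signalling (6 of 45) on the side of MLB.

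Of the metabolic lists, 4 of 29 genes were listed for aliphatic glucosinolates, 4 of 24 for starvation and 3 of 20 for iron. For starch and sugar 3 of 43 were listed, and for flavonoids 3 of 35. Each of these shares was above the 5.99% of all genes tested that were listed, on few genes and without a test. The 4 listed aliphatic glucosinolate genes were lower in EMS27, with MAM1 (3.58), IMD1 (1.43), FMOGS-OX2 (1.42) and SOT17 (1.04) per the authors' deposited table. Among starvation genes DIN2 (3.76) and BCAT2 (1.79) were lower in EMS27, and EXL2 (-1.19) and EXL4 (-1.14) were higher per the authors' deposited table. The iron genes NAS4 (1.596) and NAS1 (1.27) were lower and the ferritin gene FER1 (-1.02) was higher in EMS27 per the authors' deposited table. The starch synthase GBSS1 (1.86) and SPS4F (1.16) were lower and TPPI (-1.31) was higher in EMS27 per the authors' deposited table. Of the flavonoid genes, 4CL3 (1.42) and MYBL2 (1.097) were lower and DFR (-1.95) was higher in EMS27 per the authors' deposited table. Lists with 1 or 2 listed genes are given by count. All were lower in EMS27 for indolic glucosinolates and camalexin (2 of 18), sulfur (2 of 17), nitrogen (2 of 22), jasmonate (2 of 26) and chloroplast regulators (2 of 12). All were higher in EMS27 for chlorophyll (2 of 31), brassinosteroid (1 of 16) and cytokinin (1 of 32). The phosphate (2 of 15) and wax (2 of 33) lists had 1 each way. SIG5 of the chloroplast regulators and VSP1 of the jasmonate list lie in the same 1 Mb window as RRC1. No gene of the salicylate, heat, nonsense-mediated decay, epidermis, stomatal or root lists had a row. The root hair gene RSL2 (1.687) and the vascular gene SULTR2;2 (1.11) were the only listed markers of other cell types, both lower in EMS27 per the authors' deposited table. Their part in the results was not tested. Levels per library were not analysed here, so the labelled tissue was not checked against markers.

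The lowest FDR values outside these lists belonged to genes of varied function. Higher in EMS27, per the authors' deposited table, was a group that held the P-loop hydrolase gene AT2G18193 (-3.37), the berberine-type oxidase AT5G44440 (-3.00), the MATE transporter AT2G04050 (-2.89), AT4G35720 (-2.73), the fatty acid reductase gene FAR1 (AT5G22500; -2.21), the long noncoding RNA AT5G01675 (-1.89), the leucine-rich repeat gene AT5G12940 (-1.67) and the lipid transfer gene LTP2 (-1.52). Lower in EMS27, per the authors' deposited table, was the group of AT3G16670 (7.58) and its neighbour AT3G16660 (2.72), AT2G15020 (4.37), the lipase-like TLL1 (2.49), AT1G55960 (2.38), the Calvin cycle regulator gene CP12-2 (1.79) and AT1G52510 (1.56). Without levels, a ratio as large as that of AT3G16670 can rest on few reads in EMS27.

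Promoters were searched in the 250 bases before each protein-coding gene's start in TAIR10.1, on both strands. The G-box, spelled CACGTG, is bound by bZIP and bHLH factors such as ABI5, HYH and the PIFs. It was found in 21.2% of 325 promoters of listed genes higher in EMS27, 8.45% of 722 lower in EMS27 and 6.49% of all 27443. The overlapping abscisic acid response core ACGTGNC was in 21.5% of those higher, 10.7% of those lower and 8.57% of all. The evening element AAATATCT was in 7.69% of those higher, 4.29% of those lower and 4.79% of all. Other motifs were also searched. The CCA1-binding site AAAAATCT was in 6.46% of those higher, 5.26% of those lower and 6.69% of all. The dehydration response element NCCGAC was in 17.5% of those higher, 9.7% of those lower and 11.9% of all. The I-box GATAAG was more frequent among those lower than among those higher or all. The telo-box AAACCCTA and the site II element TGGGCC were less frequent in both listed sets than among all. Seed maturation genes with a G-box were 6 of 11, and both FKF1 and PRR5 among the 3 clock genes higher in EMS27 held an evening element, while GI held none in this window. The G-box was also in 4 of 6 clock genes lower in EMS27 (LHY, CCA1, ASG4 and RVE1) and in 3 of 10 auxin genes, 1 of 4 PIF-induced genes and 1 of 4 cold genes higher in EMS27. None of the 6 cell wall, 3 gibberellin and 3 ethylene genes higher in EMS27 held it. A match is a description of letters and not a site in use. The promoters of ABI5 (chr2:15207637-15207886, minus strand), EM6 (chr2:16780369-16780618, minus strand) and FKF1 (chr1:25508389-25508638, plus strand) are shown with G-boxes and evening elements of either strand in capitals.
ABI5 promoter: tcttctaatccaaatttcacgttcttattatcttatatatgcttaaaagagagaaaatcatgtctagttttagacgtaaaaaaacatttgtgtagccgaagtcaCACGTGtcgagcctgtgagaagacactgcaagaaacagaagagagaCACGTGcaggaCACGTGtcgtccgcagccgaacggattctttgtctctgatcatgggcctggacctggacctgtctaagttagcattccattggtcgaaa
EM6 promoter: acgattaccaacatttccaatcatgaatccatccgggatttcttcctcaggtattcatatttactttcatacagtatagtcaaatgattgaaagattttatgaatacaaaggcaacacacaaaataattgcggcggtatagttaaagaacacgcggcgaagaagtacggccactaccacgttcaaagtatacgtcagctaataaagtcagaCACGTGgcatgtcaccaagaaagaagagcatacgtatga
FKF1 promoter: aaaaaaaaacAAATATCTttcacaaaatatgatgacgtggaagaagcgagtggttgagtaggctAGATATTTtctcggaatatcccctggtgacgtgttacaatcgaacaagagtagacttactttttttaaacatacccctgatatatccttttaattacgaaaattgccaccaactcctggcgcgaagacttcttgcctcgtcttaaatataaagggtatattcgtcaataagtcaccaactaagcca

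The share of listed genes varied between windows of the genome, and this spread was given no test. Shares are of all annotated protein-coding genes, so genes that were not tested count as not listed. In the 1 Mb window of chromosome 5 that holds RRC1 (8000001 to 9000000), 23 of 222 protein-coding genes were listed (10.4%), 9 higher and 14 lower in EMS27. This was the highest share among 112 windows with at least 50 genes, where the median was 3.62% and the next highest 9.02%. The window held no splicing event. Whether these genes differ because of the rrc1 mutation or because of other changes nearby cannot be told apart in 1 line.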

How the data were processed

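Whole seedlings were sequenced as RNA, and 3 libraries of EMS27, MLB, rrc1-689 and Col-0 in red light were used here. Per the submitters' processing notes, the authors aligned reads to TAIR10 with TopHat2 2.1.1 and used ASpli 1.9. The deposited gene table gives a log2 fold change, a p-value and an FDR per gene, and holds genes past 1 log2 unit in either direction with FDR under 0.01; levels were not used. The deposited splicing table gives raw counts of junction and boundary reads per library, and the fraction of inclusion per group that the authors formed from summed reads, recovered here for 324 of 325 events.

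Levels per library were computed from these counts. Limma 3.58.1 tested log2((inclusion + 0.5) / (weighted exclusion + 0.5)) over all 325 events, and edgeR 4.0.16 (quasi-likelihood) tested read counts, both with Benjamini-Hochberg adjustment at 0.05. Other normalizations, filters, pseudocounts, DESeq2 1.42.0 and left-out replicates were tried. Members and gene lists were chosen with earlier results of these data known. Named genes were loci in both tables, the 12 lowest FDR in each direction and up to 6 members of lists with 3 or more listed genes; FLC and the root hair and vascular markers were added after their values were seen. Named events were the 4 lowest p-values of each kind and those in the lists. The number of genes and bins tested was recovered from the deposited p-values and FDRs. Sequences come from RefSeq TAIR10.1, whose nuclear coordinates matched those of the files.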

Additional observations from a re-analysis of the deposited data

Results flagged for a closer look

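In 3 of the 136 events listed for both alleles, the change differed between the pairs by the limma test of the difference itself, over 12 libraries. In EX1 intron 8 the level was 22.1% ± 2.39 in EMS27 and 1.77% ± 0.756 in MLB, and 9.18% ± 1.16 in rrc1-689 and 3.33% ± 0.578 in Col-0 (SD, n = 3 each). The difference of the changes was 2.29 on the log2 odds scale (SE 0.457; limma adjusted p = 0.0307). In the VLN3 intron that holds the alternative acceptor it was 42.1% ± 8.46 in EMS27 and 3.34% ± 1.01 in MLB, and 15.04% ± 1.68 in rrc1-689 and 6.38% ± 2.24 in Col-0 (difference 2.92, SE 0.567; limma adjusted p = 0.0307). In TOM2A the upstream acceptor was at 18.1% ± 6.63 in EMS27 and 0 in MLB, where 0 of 296 reads allow up to 1.01%, and at 11.8% ± 5.51 in rrc1-689 and 2.54% ± 1.47 in Col-0 (difference 3.27, SE 0.736; limma adjusted p = 0.0497). The VLN3 acceptor event itself, the level of upstream use, was not called for a difference between the pairs (difference 1.255, SE 1.447, limma adjusted p = 0.946). All 3 called events rose in both mutants. None of the 3 was called with the replicate block or when any of 8 of the 12 libraries was left out.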

How the results depend on the processing

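The 291 called events numbered 237 to 293 under the alternatives that kept all libraries, and 249 to 261 with any replicate left out. With 1 event per locus (added after seeing the data) 237 were called, but this tests 264 events rather than 325. Keeping only events with a mean of 20 or more reads per library (254 called) also tests fewer. The 432 called read sums became 272 when only sums with a mean of 10 or more reads were kept, which tests fewer of them, and 374 to 402 with a replicate left out. The 116 loci with called event reads became 76 with DESeq2, where the cause was not tested, and 91 to 107 with a replicate left out. Without scaling beyond event totals they were 107, of which 25 were higher and 82 lower in EMS27. The 3 differences between alleles became 0 with the replicate block and 0 to 3 with a replicate left out. By construction, 188 listed genes had an absolute log2 fold change above 2, 712 an FDR below 1e-10, and 12 of the 26 loci in both tables an event above 20 percentage points. Of 56 named events, none reversed over 392 repeats, 48 were called and 42 of these in every repeat. Deviations of same-numbered libraries of EMS27 and MLB had correlations of -0.0077, -0.0861 and 0.0785. These show no pairing, but with few reads per event they cannot exclude one. With the replicate block 276 events, 402 read sums and 107 loci were called. Few reads per event limit small differences, and genes below the authors' thresholds were not seen.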
